A study of Mus musculus with 25 samples.

Results

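The miRNAs miR-33 and miR-378a are each made from an intron of a gene that controls metabolism, and they were followed here in small extracellular vesicles (sEVs, membrane-bound particles released by cells) of mouse liver. The members were chosen by name: mmu-miR-33-5p, mmu-miR-378a-3p and mmu-miR-378a-5p, which are 3 of the 1493 entries in the deposited count table. All 3 passed the filter on low counts, which 391 entries passed. The vesicles came from livers of wild-type C57BL/6J mice, with no treatment named, at 1 week, 6 weeks, 6 months, 12 months and 14 months of age. The 25 libraries came from 5 mice of each age, with a library for each mouse. Tissue was dissociated with enzymes of a tumour kit and vesicles were collected by ultracentrifugation, so a library can hold vesicles of any cell type of the liver. The 4 ages from 6 weeks on are called adult below. Both sexes were represented equally according to the labels, which do not give the sex of each mouse.

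A miRNA guides Argonaute proteins to mRNAs that pair with its seed, bases 2 to 8 from the 5′ end, and those mRNAs are then repressed. The gene Srebf2 encodes SREBP2, the transcription factor that switches on cholesterol synthesis and uptake when sterols are low. Its intronic miR-33 represses Abca1, the transporter that exports cholesterol to HDL, and genes of fatty acid oxidation. The gene Ppargc1b encodes PGC-1β, a coactivator of mitochondrial and lipid genes. Its intronic miR-378a gives a pair of arms, both of which have been tied to mitochondrial energy use, and mice that lack them resist obesity on a fat-rich diet. In liver, miR-378a-3p is known to repress the p110α subunit of phosphoinositide 3-kinase, an enzyme of insulin signalling.

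The table also lists miR-33-3p, the other arm of miR-33, and miR-378b, miR-378c and miR-378d. Their mature sequences and that of miR-33-5p are shown because the seed decides which mRNAs a miRNA pairs with, and because the likeness of the miR-378 entries bears on how reads were counted. Sequences are from RefSeq (GRCm38.p6), 5′ to 3′, with the seed in capitals.
miR-33-5p: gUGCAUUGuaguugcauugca
miR-33-3p: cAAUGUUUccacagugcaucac
miR-378b: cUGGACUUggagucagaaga
miR-378c: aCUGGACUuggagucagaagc
miR-378d: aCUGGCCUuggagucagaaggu
miR-33-5p comes from chr15:82198127-82198147 and miR-33-3p from chr15:82198167-82198188, both on the plus strand. The miR-33-5p seed was found in 1 deposited entry among the 924 of 1095 named miRNAs that matched RefSeq, namely itself. miR-378b comes from chr11:88352839-88352858 on the plus strand, miR-378c from chr14:46954905-46954925 and miR-378d from chr10:126710355-126710376, both on the minus strand. With positions counted from 1 at the 5′ end of miR-378c, miR-378d carried A6C and C21G, so 19 of 21 aligned bases were the same. miR-378b began at base 2 of miR-378c and carried C21A, so 19 of 20 aligned bases were the same. The genes of miR-378b and miR-378c lie opposite in strand to introns of Msi2 and Samd4, and Mir378d lies in no annotated gene.

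In the mm10 annotation (GENCODE M21), Mir33 lies on chromosome 15 from 82198122 to 82198190 on the plus strand, inside intron 16 of the Srebf2 transcript Srebf2-201, which has 19 exons on the same strand. Mir378a lies on chromosome 18 from 61397835 to 61397900 on the minus strand, inside intron 1 of Ppargc1b-201, which has 13 exons on the same strand. An annotated miRNA gene, Gm25301, covers the same place on the opposite strand, from 61397813 to 61397925. Whether the authors' counting used the strand is not given in the sources used here, so reads of the overlapping genes could not be told apart.

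The counts of miR-378c and miR-378d followed those of miR-378a-3p too closely to be treated as separate measurements, and miR-378b was a smaller share of it. The miR-378c count was 97.01% to 100% of the miR-378a-3p count in the 25 libraries, with a median of 98.7% and a gap of 0 to 5 counts. The miR-378d count was 83.1% to 92.9% of it and the miR-378b count 11.5% to 19.8%. The counts stood in the order miR-378a-3p, miR-378c, miR-378d and miR-378b, ties allowed, in 25 of 25 libraries. How reads that match more than 1 entry were counted is not given in the sources used here. A value of miR-378a-3p below can therefore include reads of its relatives, and miR-378b, miR-378c and miR-378d are not counted as further results. By age, the miR-378b percentage averaged 16.0% ± 1.99 in 1-week mice, 13.8% ± 2.05 in 6-week mice, 17.3% ± 3.197 in 6-month mice, 16.4% ± 2.27 in 12-month mice and 15.9% ± 2.54 in 14-month mice (SD, n = 5 each).

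**Figure D1:**
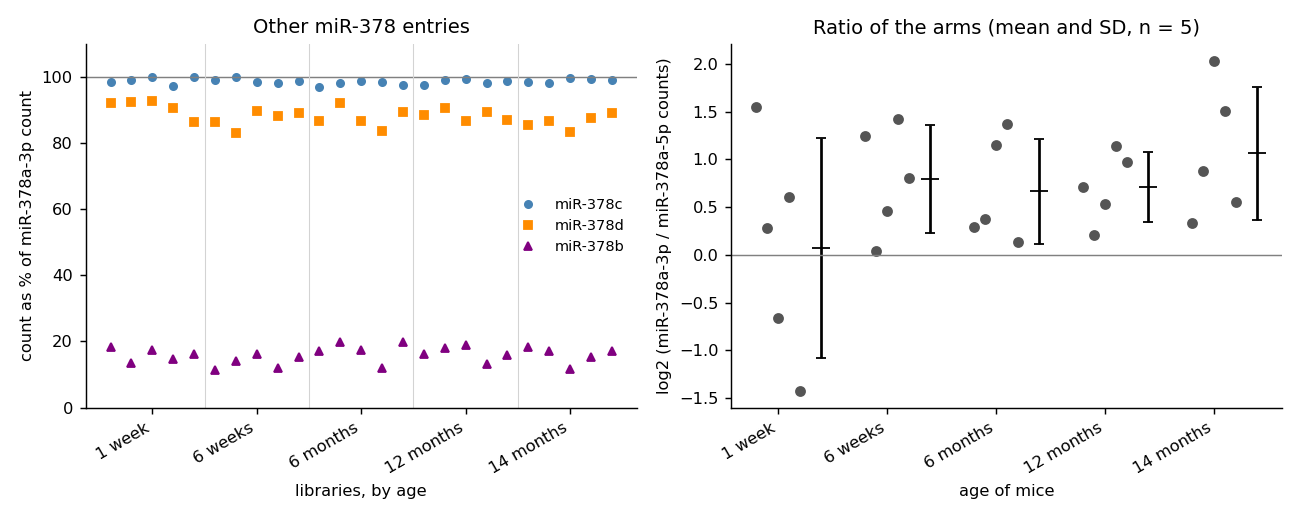
Left, counts of miR-378c, miR-378d and miR-378b as a percentage of the miR-378a-3p count in each of 25 libraries, grouped by age; miR-378c lay at 97.01% to 100%. Right, log2 ratio of miR-378a-3p to miR-378a-5p counts, with a point for each mouse and the mean and SD of 5 mice beside them; 2 of 5 mice at 1 week lay below 0.

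Library totals ran from 641579 to 6888928 counts and averaged 3348808 ± 1990633 in 1-week mice, 1046872 ± 426813 in 6-week mice, 1413686 ± 603587 in 6-month mice, 2179828 ± 1139953 in 12-month mice and 2457390 ± 993097 in 14-month mice (SD, n = 5 each). Levels are counts per 1000000 scaled with TMM factors (CPM), which set libraries to a common level for most entries. The members were a small part of a profile in which the hepatocyte miRNA miR-122-5p held 58.1% of all counts. Over the 25 libraries miR-378a-3p had 5060 counts, miR-378a-5p had 3477, and miR-33-5p had 277 and ranked 344th of all entries. miR-33-3p had 21 counts in all, in 11 of 25 libraries, and was not tested. These materials are vesicle RNA, so fewer vesicles of a cell type and less of a miRNA per vesicle cannot be told apart, and since the batch given in the labels is the age itself, effects of handling and of age cannot be told apart either.

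miR-378a-3p, the arm that represses genes of energy use and insulin signalling, was low in the first week and 3.31- to 4.92-fold higher at the adult ages. At 1 week its level was 46.7, 31.6, 32.5, 35.2 and 24.0 CPM in mice 1, 3, 4, 5 and 27. At 6 weeks it was 183, 116, 131, 205 and 199.3 CPM in mice 6 to 10. At 6 months it was 132, 108.2, 131, 174 and 125.8 CPM in mice 11 to 15. All of these adult libraries lay above the highest library of 1 week, and the 6-week mice fell into 3 high and 2 lower libraries. At 12 months the level was 107.5, 85.8, 124, 121.7 and 122.3 CPM in mice 16 to 20. At 14 months it was 140, 115, 154, 143.7 and 138 CPM in mice 21 to 25. The 20 adult libraries spanned 85.8 to 205 CPM, with no overlap with 1 week. Taken 1 adult age at a time, 52.9% to 58.6% of all tested entries did not overlap with 1 week, in either direction. The share for all adult libraries together was not computed.

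miR-378a-5p, the arm from the other side of the same hairpin, was also lowest at 1 week but varied more between mice. At 1 week its level was 15.9, 25.9, 51.5, 23.1 and 64.7 CPM in mice 1, 3, 4, 5 and 27. At 6 weeks it was 76.8, 113, 94.9, 76.2 and 114 CPM in mice 6 to 10. At 6 months it was 107.1, 82.98, 58.8, 67.2 and 114 CPM in mice 11 to 15. The 6-week libraries all lay above those of 1 week, while 1 of the 6-month libraries fell below mouse 27. At 12 months it was 65.5, 74.0, 85.9, 55.0 and 62.3 CPM in mice 16 to 20. At 14 months it was 111, 62.5, 37.3, 50.5 and 93.7 CPM in mice 21 to 25. Of the 20 adult libraries, 14 lay above the highest of 1 week, 64.7 CPM, and the 14-month mice spread between 37.3 and 111 CPM, with the largest SD of the 5 ages.

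miR-33-5p, the cholesterol export repressor, was near the lower limit of what these libraries measure. At 1 week its level was 2.50, 5.08, 2.84, 3.95 and 1.60 CPM in mice 1, 3, 4, 5 and 27. At 6 weeks it was 5.58, 3.27, 9.69, 4.43 and 5.36 CPM in mice 6 to 10. At 6 months it was 2.95, 7.46, 10.5, 8.34 and 1.92 CPM in mice 11 to 15. The groups overlapped, and the lowest 6-month mouse, mouse 15, lay below 4 of the 5 mice of 1 week. At 12 months the level was 2.47, 6.60, 6.23, 3.17 and 8.15 CPM in mice 16 to 20. At 14 months it was 3.73, 16.7, 4.29, 6.32 and 9.81 CPM in mice 21 to 25, where mouse 22 was the highest of the 25 libraries. These levels rested on 2 to 29 counts per library with a median of 10, so counting error alone was wide. In mouse 22 the 23 counts were 14.3 per 1000000 raw counts, with an exact binomial (Clopper-Pearson) 95% interval of 9.08 to 21.5, and in mouse 15 the 2 counts were 1.75 with an interval of 0.212 to 6.33.

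**Figure D2:**
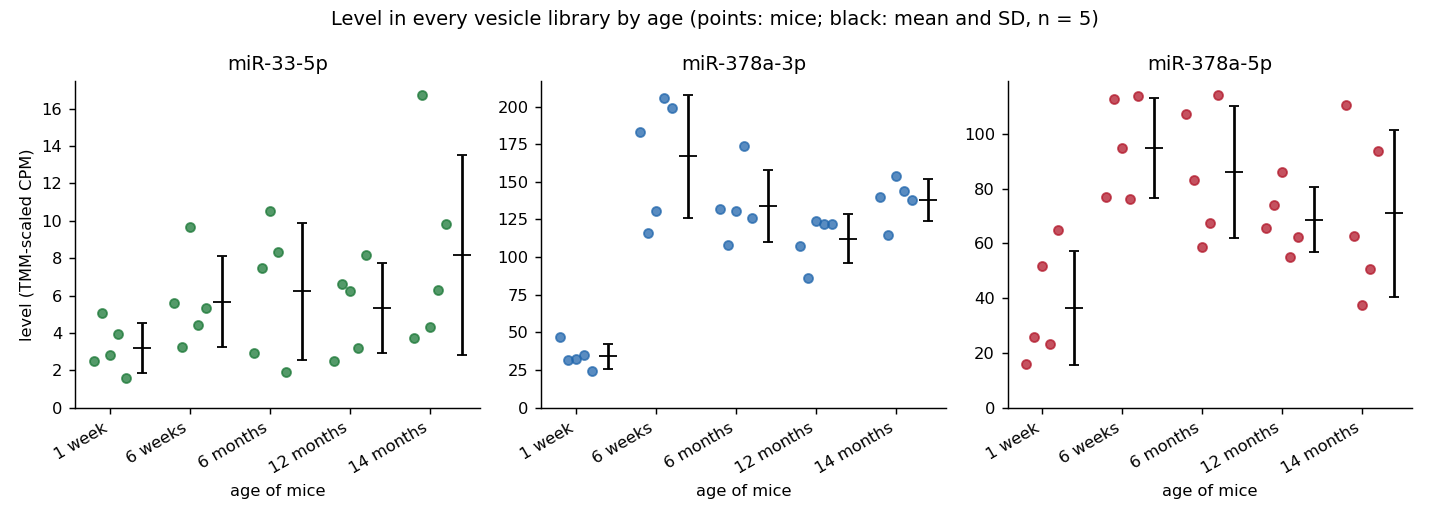
TMM-scaled CPM of miR-33-5p, miR-378a-3p and miR-378a-5p by age, with a point for each mouse and the mean and SD of 5 mice in black. The 20 adult points of miR-378a-3p all lie above the 5 points of 1 week, while the groups of miR-33-5p overlap. For single adult ages, 52.9% to 58.6% of all tested entries did not overlap with 1 week, in either direction.

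**Figure D3:**
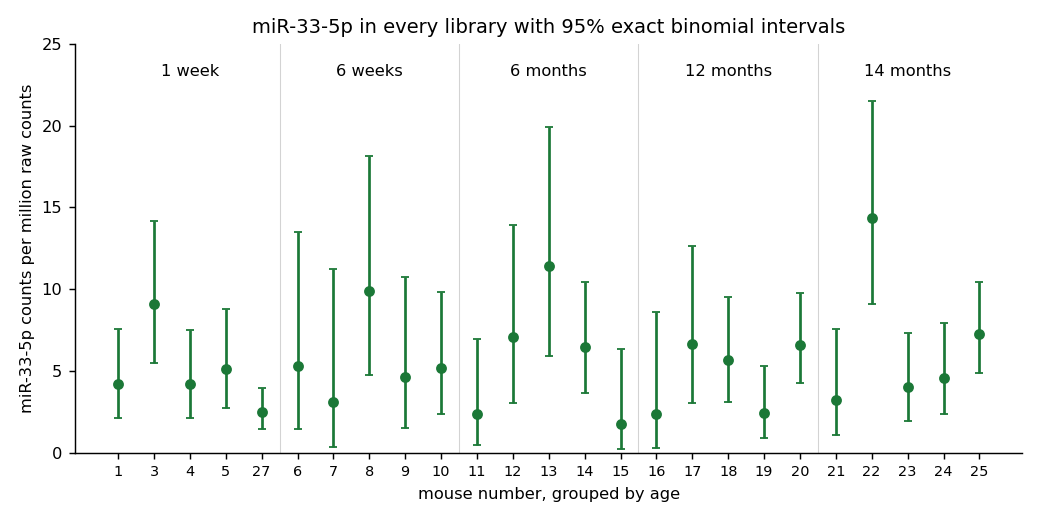
miR-33-5p counts per 1000000 raw counts in each of 25 libraries, with 95% exact binomial intervals that cover counting error only. Mouse 22 at 14 months is highest, at 14.3, and its interval lies wholly above those of 4 of the 5 mice of 1 week.

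From low to high, the age means of miR-378a-3p were 34.01 ± 8.23 CPM at 1 week, 112 ± 16.2 at 12 months, 134 ± 24.1 at 6 months, 138 ± 14.2 at 14 months and 167 ± 40.9 at 6 weeks (SD, n = 5 each). Those of miR-378a-5p were 36.2 ± 20.8 CPM at 1 week, 68.5 ± 11.9 at 12 months, 70.9 ± 30.4 at 14 months, 86.1 ± 24.2 at 6 months and 94.8 ± 18.3 at 6 weeks. Those of miR-33-5p were 3.19 ± 1.35 CPM at 1 week, 5.32 ± 2.41 at 12 months, 5.66 ± 2.43 at 6 weeks, 6.24 ± 3.67 at 6 months and 8.17 ± 5.34 at 14 months. For both miR-378a arms the neighbours 12 months and 1 week differed in the edgeR test below, and neighbours among the adult ages did not pass it. For miR-33-5p no pair of neighbours passed.

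Over the 5 ages, the edgeR quasi-likelihood test with Benjamini-Hochberg adjustment over all 391 entries gave an adjusted p of 2.90e-09 for miR-378a-3p, 0.00666 for miR-378a-5p and 0.105 for miR-33-5p. The test called 2 of 3 members, where it called 75.4% of all tested entries. A change with age was thus common in these vesicles, and the calls set the members apart from other entries in no way.

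Young adult liver was compared with first-week liver first, at 6 weeks against 1 week. Both miR-378a arms rose, and miR-33-5p did not pass the test. miR-378a-3p was 4.92-fold higher at 6 weeks, a log2 fold change of 2.30 ± 0.20 (SE, 95% interval 1.88 to 2.72, edgeR adjusted p = 4.08e-10). miR-378a-5p was 2.60-fold higher, by 1.38 ± 0.33 (0.70 to 2.06, edgeR adjusted p = 0.00057). In both, 5 of 5 mice at 6 weeks lay above all 5 at 1 week. miR-33-5p had a log2 fold change of 0.87 ± 0.49 (-0.14 to 1.89, edgeR adjusted p = 0.113), an interval that also holds changes as large as that of miR-378a-5p. The 2 calls of 3 members in the higher direction stand beside 35.0% of all entries called higher, and groups did not overlap, in either direction, for 57.3% of entries. At the later adult ages, where miR-378a-3p did not overlap with 1 week either, that share was 58.6% at 6 months, 53.2% at 12 months and 52.9% at 14 months. Ranked by log2 fold change, miR-378a-3p stood above 89.8% of tested entries, miR-378a-5p above 76.7% and miR-33-5p above 64.2%.

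Later adult ages kept the distance from 1 week for miR-378a-3p. Its log2 fold change was 1.98 ± 0.20 at 6 months (edgeR adjusted p = 3.06e-09), 1.73 ± 0.20 at 12 months (2.47e-08) and 2.02 ± 0.20 at 14 months (1.81e-09). miR-378a-5p was higher by 1.24 ± 0.33 at 6 months (edgeR adjusted p = 0.00148), 0.91 ± 0.33 at 12 months (0.0147) and 0.96 ± 0.33 at 14 months (0.0107). With TMM scaling, miR-33-5p passed against 1 week at 14 months but at no other age. At 14 months it was 2.57-fold higher, by 1.36 ± 0.46 (0.42 to 2.30, edgeR adjusted p = 0.00994), with 3 of 5 mice above all of 1 week. At 6 months its value was 1.01 ± 0.48 (edgeR adjusted p = 0.0573) and at 12 months 0.82 ± 0.47 (0.116). The share of all entries called higher than at 1 week was 36.8% at 6 months, 33.2% at 12 months and 35.5% at 14 months. Without mouse 22 the 14-month value of miR-33-5p was 0.97 (edgeR adjusted p = 0.0640). With upper-quartile factors miR-33-5p passed at all 4 adult ages, by 1.33 in 6-week mice, 1.42 in 6-month mice, 1.22 in 12-month mice and 1.63 in 14-month mice (edgeR adjusted p from 0.00286 to 0.0239). Those factors called 47.1% of all entries higher at 6 weeks and 40.7% at 14 months. The median log2 fold change of all entries was then 0.61 and 0.19. Relative to that median miR-33-5p was higher by 0.72 and 1.44, against 0.75 and 1.42 with TMM.

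These comparisons share the 1-week libraries. The size of the fold changes depended on the scaling. At 6 weeks against 1 week the median log2 fold change of all entries was 0.12 with TMM and -0.35 with DESeq2 size factors. It was -0.54 with library totals alone and 0.61 with upper-quartile factors. miR-378a-3p was called higher at 6 weeks in 10 of 10 settings, between 1.63 and 2.76. Relative to the median of all entries it was higher by 2.10 to 2.58. miR-378a-5p was called in 9 of 10, between 0.73 and 1.92, or 1.19 to 1.76 relative to the median, and with library totals alone it did not pass (edgeR adjusted p = 0.0525). Against 1 week, miR-378a-5p was called in 9 of 10 settings at 6 months and in 5 of 10 at 12 months. At 14 months against 1 week, miR-378a-3p was called in 10 of 10 settings, miR-378a-5p in 5 of 10 and miR-33-5p in 5 of 9. The lowest values there, with library totals alone, were 1.09, 0.043 and 0.43 for the 3 members in that order.

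**Figure D4:**
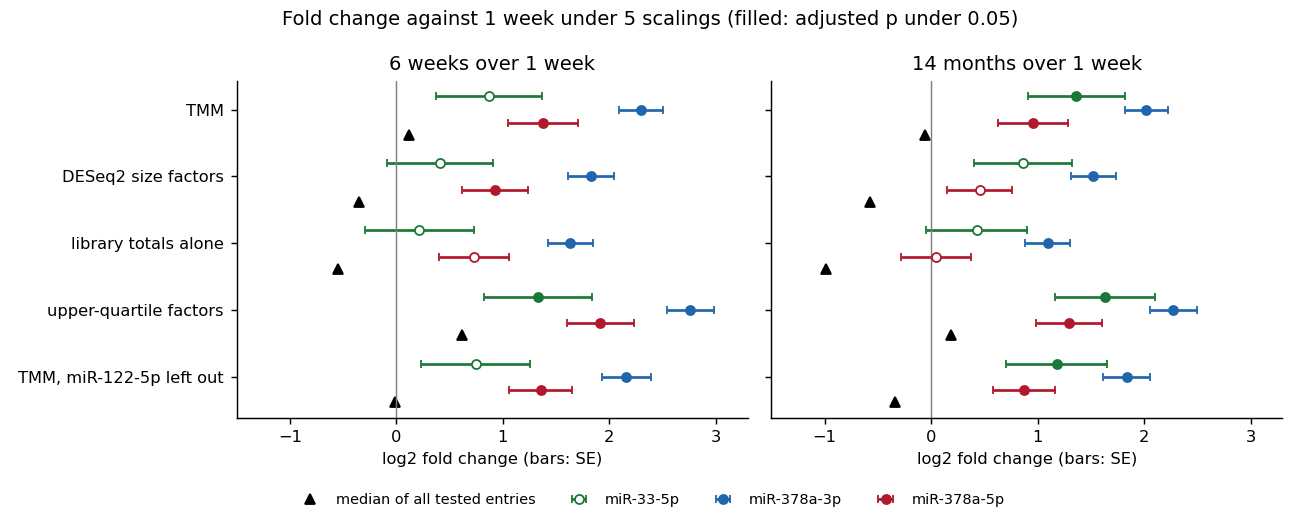
Log2 fold change with SE of each member at 6 weeks (left) and 14 months (right) over 1 week under 5 scalings, filled where the adjusted p was under 0.05; triangles are the median of all tested entries. The members and the median shift together, and miR-378a-3p stays at or above 1.09 in every scaling drawn.

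A ratio of counts within a library needs no scaling, and miR-122-5p, the most abundant hepatocyte miRNA, served as the denominator. It held 58.1% of all counts, so this ratio is close to scaling by library totals and is not independent of it. With TMM miR-122-5p was itself called higher than at 1 week, by 0.56 at 6 weeks and 0.83 at 14 months. The log2 ratio of miR-378a-3p to miR-122-5p was higher at 6 weeks than at 1 week by 1.72 (exact two-sided permutation test of 5 against 5 mice, p = 0.00794, the smallest it can give, adjusted p = 0.0198 over 10 pairs of ages). The difference from 1 week was 1.33 at 6 months, 1.08 at 12 months and 1.20 at 14 months, each with 5 of 5 mice above all of 1 week and the same exact adjusted p. For miR-378a-5p the ratio differed by 0.99 ± 0.42 at 6 weeks and did not pass (exact permutation p = 0.0714, adjusted p = 0.238). For miR-33-5p the ratio differed from 1 week by 0.37 at 6 weeks and 0.41 at 14 months, and neither passed (exact permutation adjusted p = 0.944 each).

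Among the adult ages edgeR with TMM factors called no difference for any member in the 6 pairs of ages. Of these 18 tests 0 passed after adjustment and 1 had an unadjusted p under 0.05, while DESeq2 called 1, the same one. That was miR-378a-3p at 12 months against 6 weeks, with 112 ± 16.2 CPM at 12 months and 167 ± 40.9 CPM at 6 weeks, a log2 fold change of -0.57 ± 0.20 (-0.98 to -0.17, edgeR adjusted p = 0.0853). This difference passed in 4 of 10 settings: with DESeq2 (-0.58, adjusted p = 0.0428) and in edgeR with library totals alone (-0.73, 0.0389), with a mean CPM of at least 10 (-0.66, 0.0246) and with the 2 ages alone (-0.64, 0.0285). It also passed in edgeR without mouse 7 (-0.68, adjusted p = 0.0426) or without mouse 27 (-0.57, 0.0489). The ratio of miR-378a-3p to miR-122-5p also differed between these ages, by -0.64 ± 0.21 (exact permutation p = 0.0238, adjusted p = 0.0476), a call that was lost when any 1 of 9 libraries was left out. In the edgeR comparison of 12 months with 6 weeks 22 of 391 entries (5.63%) were called. DESeq2 called 40 of 391, with 6.14% of entries higher and 4.09% lower. With library totals alone edgeR called 20 of 391, with 2.30% higher and 2.81% lower. The ratio of miR-378a-5p to miR-122-5p differed from 6 weeks by -0.55 ± 0.21 at 12 months and -0.78 ± 0.31 at 14 months. Neither passed after adjustment (exact permutation p = 0.0397, adjusted p = 0.198 each).

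At 14 months against 6 weeks the log2 fold changes were -0.28 ± 0.20 for miR-378a-3p (edgeR adjusted p = 0.407), -0.42 ± 0.33 for miR-378a-5p (0.462) and 0.49 ± 0.49 for miR-33-5p (0.559), where 3.84% of all entries were called. At 6 months against 6 weeks they were -0.32 ± 0.20, -0.14 ± 0.33 and 0.14 ± 0.51, where 1.79% were called. At 12 against 6 months they were -0.25 ± 0.20, -0.32 ± 0.33 and -0.20 ± 0.48. At 14 against 12 months they were 0.30 ± 0.20, 0.046 ± 0.32 and 0.55 ± 0.46, and at 14 against 6 months 0.041 ± 0.20, -0.28 ± 0.33 and 0.35 ± 0.47. In each of these lists miR-378a-3p comes first and miR-33-5p last. For the last 3 pairs of ages edgeR and DESeq2 called 0 of 391 entries (0%), and edgeR gave an unadjusted p under 0.05 for 28 entries at 12 against 6 months, for 8 at 14 against 12 months and for 30 at 14 against 6 months. The 95% intervals of miR-33-5p were the widest, such as -0.62 to 1.32 at 14 against 6 months, which holds a rise of more than 2-fold.

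**Figure D5:**
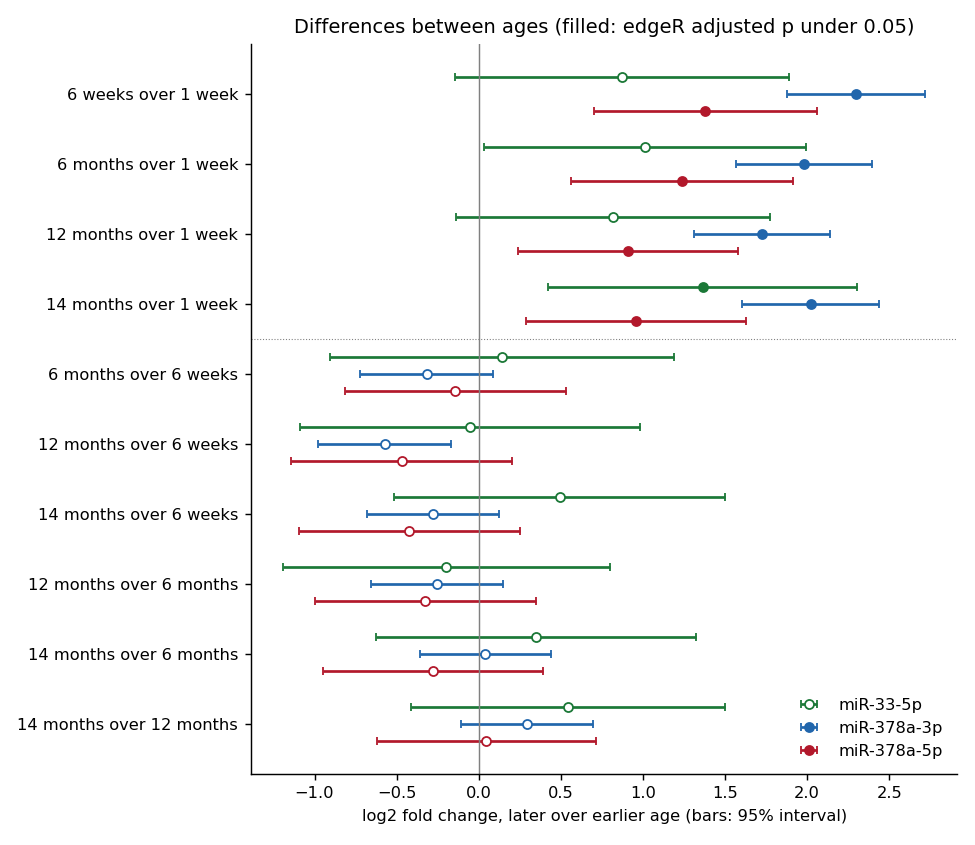
Log2 fold change of the later over the earlier age with its 95% interval for each member and each of 10 pairs of ages, filled where the edgeR adjusted p was under 0.05. The 9 filled points are all comparisons with 1 week, and the intervals of miR-33-5p are the widest.

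The arms of miR-378a come from 1 hairpin, so their ratio within a library was examined, as raw counts without correction for length (21 bases for miR-378a-3p and 22 for miR-378a-5p in the deposited table). The miR-378a-3p count was above the miR-378a-5p count in 23 of 25 libraries, in 3 of 5 at 1 week and in all 5 at each adult age. The log2 ratio averaged 0.070 ± 1.15 in 1-week mice, 0.80 ± 0.57 in 6-week mice, 0.67 ± 0.55 in 6-month mice, 0.71 ± 0.37 in 12-month mice and 1.06 ± 0.70 in 14-month mice (SD, n = 5 each). At 1 week it ran from -1.43 in mouse 27, the library with the lowest miR-378a-3p and the highest miR-378a-5p of its age, to 1.55 in mouse 1. The difference of 6 weeks from 1 week was 0.73 ± 0.57 and did not pass (exact permutation p = 0.262, adjusted p = 0.608), and no pair of ages passed. The ratio of miR-378a-3p to miR-33-5p differed by 1.35 ± 0.40 at 6 weeks against 1 week and did not pass after adjustment (exact permutation p = 0.0238, adjusted p = 0.212).

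The members were set beside other miRNAs of cholesterol, lipid, insulin and energy metabolism, without a test of either list. Of 25 listed miRNAs of cholesterol and lipid metabolism 21 were tested, and at 6 weeks against 1 week 11 rose, 4 fell and 6 did not pass, with a median log2 fold change of 0.58 against 0.12 for all entries, of which 35.0% were called higher and 36.8% lower. Under scaling by library totals alone, 5 were higher and 6 lower, with a median of -0.084, where 22.5% of all entries were called higher and 45.5% lower. The paired entries miR-27a-3p and miR-27b-3p, regulators of lipid genes with nearly equal counts, rose by 1.93 ± 0.15 and 2.02 ± 0.15. miR-30c-5p, which represses the lipoprotein assembly protein MTP, was at 2174 ± 324 CPM at 6 weeks and 569.6 ± 103 CPM at 1 week, higher by 1.93 ± 0.16. The rarer arm of the hepatocyte miRNA, miR-122-3p, was higher by 2.11 ± 0.24. miR-223-3p, a miRNA of myeloid cells that also represses cholesterol synthesis, was at 412 ± 42.1 CPM at 6 weeks and 2022 ± 554 CPM at 1 week, with a log2 fold change of -2.30 ± 0.22. miR-144-3p, an erythroid miRNA that represses Abca1 as miR-33 does, was at 60.5 ± 19.5 CPM at 6 weeks and 229.6 ± 98.5 CPM at 1 week, with a log2 fold change of -1.91 ± 0.36. None of these 6 calls was lost in 34 alternatives.

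Of 16 miRNAs of insulin and energy metabolism, all tested, 9 rose, 6 fell and 1 did not pass at 6 weeks, with a median of 0.77, beside 35.0% of all entries called higher and 36.8% lower. Under scaling by library totals alone, 6 were higher and 6 lower, beside 22.5% and 45.5% of all entries. Among those that fell with TMM, miR-103-3p and miR-107-3p had nearly equal levels, each 183 CPM at 6 weeks and 384 CPM at 1 week. They are named only because they cannot be treated as separate measurements. The largest changes were those of miR-29b-3p, at 3.88 ± 0.27, miR-29c-3p and miR-29a-3p, at 3.58 ± 0.33 each with nearly equal counts, let-7g-5p, at 3.15 ± 0.19, and miR-21a-5p, at 2.26 ± 0.28. miR-29 and let-7 are known to dampen insulin signalling. In the other direction, miR-375-3p, a miRNA of pancreatic islets, was at 0.534 ± 0.798 CPM at 6 weeks and 9.89 ± 6.19 CPM at 1 week, lower by a log2 fold change of -3.68 ± 0.79. In the 6-week libraries 3 counts corresponded to 1.79 to 4.90 CPM. The 6-week mean of miR-375-3p lay below that, so the size of its fall is poorly measured. At 14 months against 6 weeks 1 of the 21 cholesterol and lipid miRNAs rose and 20 did not pass, and 3 of 16 insulin and energy miRNAs rose and 13 did not, where 3.32% of all entries were called higher. The first was miR-182-5p, at 135 ± 16.3 CPM at 14 months and 79.6 ± 12.8 CPM at 6 weeks (0.77 ± 0.22, edgeR adjusted p = 0.0445), a call lost in 19 of 34 alternatives. The others were miR-29b-3p, with 1.82 ± 0.25, and 2 relatives, miR-29a-3p (1.44 ± 0.30) and miR-29c-3p (1.44 ± 0.30), whose calls were lost with log2 library total as a covariate.

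Markers of the cells that a liver preparation can hold moved with the 1-week difference. The counts that follow stand beside 35.0% of all entries called higher and 36.8% called lower at 6 weeks, or 22.5% and 45.5% with library totals alone and 47.1% and 30.7% with upper-quartile factors. Of 7 hepatocyte miRNAs 6 rose at 6 weeks (4 with library totals alone), with a summed level of 673732 to 760739 CPM at 6 weeks and 402296 to 575534 CPM at 1 week. Of 5 immune miRNAs 4 fell (2 fell and 1 rose with upper-quartile factors), and their sum was 2163 to 2839 CPM at 6 weeks and 4966 to 5592 CPM at 1 week. Of 4 erythroid miRNAs 3 fell, with a sum of 165 to 485 CPM at 6 weeks and 308 to 819 CPM at 1 week. All 5 biliary and epithelial miRNAs fell, with a sum of 355 to 463 CPM at 6 weeks and 846 to 1368 CPM at 1 week. Skeletal and heart muscle, tissues rich in miR-378a, had 6 markers in the table, of which both tested ones fell. The sum of the 6 was 1.94 to 8.38 CPM at 6 weeks and 61.4 to 1128 CPM at 1 week. Of these, miR-133b-3p and miR-208b-3p were at 0 in every 6-week library. The endothelial sum was 44651 to 53652 CPM at 6 weeks and 21083 to 38924 CPM at 1 week, with 1 of 2 members called higher but 1 called lower with library totals alone, and the stellate and smooth muscle sum was 6300 to 7672 CPM at 6 weeks and 3880 to 5992 CPM at 1 week. Of the 5 stellate and smooth muscle members 2 were called higher, but 0 higher and 3 lower with library totals alone. The part of these cell types in the result was not tested.

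The profiles most like each member over the 25 libraries are given as descriptions, with no p, since libraries of 1 age share that age and library totals differed between ages. For miR-378a-3p, the highest Pearson r of log2 CPM outside the miR-378 entries were 0.95 with miR-192-3p and 0.95 with let-7g-5p. Over the 20 adult libraries these were 0.33 and 0.26, so most of the likeness came with the step from 1 week. The 3 entries that came next, miR-30e-5p, miR-30a-5p and miR-30d-5p, had 0.94 each and 0.75, 0.73 and 0.68 over the adult libraries; they lie beyond the 5 named by rule and were chosen after their values were seen. For miR-378a-5p the closest was miR-24-3p, at 0.86 and 0.53 in adults, followed by miR-574-3p (0.82 and 0.55), miR-195a-5p (0.78 and -0.19), miR-12191-3p (0.77 and 0.51) and miR-455-3p (0.75 and 0.63). For miR-33-5p the closest were miR-374b-5p (0.63 and 0.53), miR-185-5p (0.55 and 0.45), miR-500-3p (0.54 and 0.46), miR-340-5p (0.54 and 0.30) and let-7c-2-3p (0.54 and 0.35). The arms of miR-378a had r = 0.60 with each other over the 25 libraries and 0.028 over the 20 adult ones. miR-33-5p had r = 0.41 with miR-378a-3p and 0.12 with miR-378a-5p, against -0.027 and -0.25 in adults.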

How the data were processed

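The authors deposited raw counts per miRNA entry for 25 libraries. Per the submitters' processing notes, Bowtie, edgeR and mm10 were used, with versions not given in the sources used here. Per the labels' protocols, libraries were made with a QIAseq miRNA kit and read from both ends on a NovaSeq instrument. Whether the counts are reads or molecular identifiers is not given in the sources used here. The exact binomial intervals treat each count as independent and could be too narrow if the counts are reads. They leave out the spread between mice, which the edgeR intervals include. Of 1493 entries, 1095 carry a mouse miRNA name and 398 are called unconservative, with 0.0836% of counts. No 2 libraries of an age were identical (50 pairs).

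One edgeR 4.0.16 quasi-likelihood model (R 4.3.3, TMM factors, filterByExpr, robust) of all 25 libraries was tested on simulated data and gave an age test and 10 pairwise contrasts, later over earlier age, with Benjamini-Hochberg adjustment over 391 entries and a threshold of 0.05. The SE is approximate: the size of the estimate divided by the root of its F statistic. The 5 ratios of counts, with 0.5 added to each, were compared with exact permutation tests over 10 pairs of ages. Alternatives were other scalings, DESeq2 1.42.0, other filters, the 2 ages alone, log2 library total as a covariate, and each library left out. Named entries were the members, other miR-33 and miR-378 entries, the 6 list members with the largest called change at 6 weeks against 1 week, list members called at 14 months against 6 weeks, miR-122-5p, and the 5 entries most correlated with each member. Members, lists and rules were chosen with earlier results of these data known. The edgeR and DESeq2 p-values weigh a difference between ages against the spread between mice of an age. Permutation p-values rest on relabelling mice between the ages compared. Since the batch in the labels is the age, no p-value separates handling from age.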

Additional observations from a re-analysis of the deposited data

How the results depend on the processing

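No paired analysis was possible because no mouse number occurs at more than 1 age. The edgeR calls of miR-378a-3p against 1 week held in all 9 other settings and without each of the 25 libraries. The age test of miR-378a-5p missed the threshold with DESeq2 size factors (adjusted p = 0.0839), library totals alone (0.184) and DESeq2 (0.0624), and its 6-week difference with totals alone (0.73). miR-33-5p passed with upper-quartile factors in the age test (adjusted p = 0.0299) and over 1 week at 6 weeks (1.33), 6 months (1.42) and 12 months (1.22), while its 14-month call over 1 week was lost with DESeq2 size factors (0.86), totals alone (0.43), DESeq2 (0.88) and no filter (1.17). A filter at a mean CPM of 10 gave no value for it. The cause was not tested.

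Some values changed sign from those with TMM, and none was called in the setting where it did. miR-378a-5p at 14 over 12 months was -0.0047, -0.092, -0.11, -0.011, -0.0049 and -0.021 with DESeq2 size factors, totals alone, upper-quartile factors, miR-122-5p left out, DESeq2 and the 2 ages alone. miR-378a-3p at 14 over 6 months was -0.078 with totals alone, -0.089 with upper-quartile factors, -0.023 with the CPM filter, -0.053 with the depth covariate and -0.044 with the 2 ages alone. miR-33-5p at 12 months over 1 week was 0.82 with TMM and -0.0011 with totals alone. At 12 months over 6 weeks it was 0.039 with no filter. With no filter miR-378b was 0.0075 at 14 months over 6 weeks. At 6 weeks over 1 week miR-122-5p was called with TMM (0.56, edgeR adjusted p = 0.000196) and was -0.084 with totals alone. With 1 added the ratio of miR-33-5p to miR-122-5p was -0.037 at 14 months over 6 weeks.

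With each library left out, miR-33-5p ranged over 0.76 to 1.26 at 6 months over 1 week (called in 6 of 25 cases), -0.11 to 0.41 at 6 months over 6 weeks, -0.22 to 0.21 at 12 months over 6 weeks, -0.42 to 0.056 at 12 over 6 months, 0.97 to 1.60 at 14 months over 1 week and -0.037 to 0.61 at 14 over 6 months. miR-378a-3p ranged over -0.68 to -0.48 at 12 months over 6 weeks and -0.024 to 0.23 at 14 over 6 months, miR-378a-5p over -0.16 to 0.16 at 14 over 12 months, and miR-378b over -0.18 to 0.064 at 14 months over 6 weeks. The arm ratio ranged over -0.32 to 0.027 at 6 months over 6 weeks, -0.27 to 0.074 at 12 months over 6 weeks and -0.084 to 0.22 at 12 over 6 months. The ratio to miR-122-5p ranged over -0.26 to 0.24 for miR-33-5p at 14 months over 6 weeks and -0.79 to -0.53 for miR-378a-3p at 12 months over 6 weeks. Of cholesterol and lipid miRNAs 5 rose at 6 weeks over 1 week with totals alone. At 14 months over 6 weeks 0 rose with DESeq2 size factors or totals alone, 2 with DESeq2 and 0 to 1 with a library left out, and 1 insulin and energy miRNA fell with totals alone. Of all calls at 6 weeks over 1 week, 48.8% were higher with TMM, 33.1% with totals alone, 39.3% with DESeq2 size factors and 60.5% with upper-quartile factors.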

Other observations

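The 1-week library of mouse 27, the deepest of all 25, held the lowest miR-378a-3p (24.0 CPM) and the highest miR-378a-5p (64.7 CPM) of the 1-week libraries, and mouse 4 also had more miR-378a-5p than miR-378a-3p, with a log2 ratio of -0.66. In the other 3 mice of that age miR-378a-3p was the more abundant arm. The log2 library total had a Pearson r of -0.45 with log2 miR-378a-3p over the 25 libraries and 0.087 over the 20 adult ones, and of -0.39 and -0.37 with miR-378a-5p. For miR-33-5p these were -0.067 and 0.31. miR-33-3p had 6 of its 21 counts in mouse 27 and none in the other 1-week libraries.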
